A study of Mus musculus with 12 samples.

Results

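The p53 gene Trp53 and 9 genes that p53 is known to induce, Mdm2, Ccng1, Bax, Bbc3, Eda2r, Trp53inp1, Phlda3, Sesn2 and Zmat3, were followed in hair follicle stem cells (HFSCs) of the mouse. The 10 genes were chosen by name for their place in the p53 pathway and matched by gene symbol in both expression tables. All 10 were found among the 17885 genes of the Eed iKO table and among the 21915 genes of the hair cycle table. A filter on low values kept 10 of them in the first table and 9 in the second, where Eda2r did not pass and was not tested.

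RNA sequencing libraries were made from HFSCs of C57BL/6J back skin, sorted for CD34, EpCAM and high α6-integrin and against Sca1, with 3 libraries per group and 12 in all. The Eed iKO libraries, with the genotype label Eed -/-, came from mice of postnatal day 70 with K15-CrePGR and floxed Eed alleles (Eed is part of the repressor complex PRC2), in which topical RU-486 activates a Cre driven in the bulge. Control libraries of the same age carry the label wildtype, and the methods give control mice ethanol in place of RU-486. Genotype and treatment thus cannot be told apart. The anagen (growth phase) and telogen (resting phase) libraries were both wildtype, at postnatal days 28 to 30 and 50 to 52, so that hair cycle phase and age cannot be told apart. The control and Eed iKO libraries are described as biological replicates from more than a single litter. For the hair cycle several mice per phase are described, but not how they were divided over the libraries.

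p53 is a transcription factor that is held at a low level by the ubiquitin ligase Mdm2 and is stabilised after DNA damage and other stress. It then induces genes for cell cycle arrest, apoptosis, DNA repair and its own restraint. Its activity is set mainly through the stability and modification of the protein, which RNA levels do not show. In the skin it is known for arresting or removing keratinocytes with damaged DNA.

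The DNA letters that p53 recognises are shown first, as background to the members. p53 binds a consensus decamer, with a C and a G around a pair of A or T bases at its core, and usually a pair of such decamers. Windows of 300 bases around the gene start, 250 before it and 50 after it, were taken from RefSeq (GRCm38.p6) and searched on both strands. Windows were present for 8 of the members, and not for Zmat3 and Trp53inp1. An exact decamer stood in the windows of 4 members, Trp53, Mdm2, Ccng1 and Bax, and in those of 9.55% of 27025 gene symbols. A pair of decamers with intact cores, at most 2 other mismatches and a gap of at most 13 bases stood in the window of Bax alone among the members, and in 2.47% of all symbols. The sequences of these matches follow on the strand of each gene, 5′ to 3′, with the core in capitals, and they lie upstream of the gene start. The settings of the search were chosen after the windows had been seen, and the gene starts are those of RefSeq. A match is only a run of letters.
Bax, pair with a gap of 5 bases, chr7:45467090-45467114: tgaCAAGcatatcccaggCAAGctt
Bax, pair with a gap of 1 base, chr7:45467079-45467099: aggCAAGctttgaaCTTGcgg
Mdm2, single decamer, chr10:117710935-117710944: gaaCTTGcct
Ccng1, single decamer, chr11:40755462-40755471: gggCAAGcct
Trp53, single decamer, chr11:69580284-69580293: ggaCTTGccc
The pairs in Bax share 1 decamer, which is also its exact match. No match under these settings was found in the windows of Bbc3, Eda2r, Phlda3 and Sesn2, which says only that these letters are not in those windows.

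The deposited values are counts divided by a size factor of the library, here called normalized counts, and each table was normalized and tested on its own with limma on log2(normalized count + 1). This scale understates the change of low genes. The Eed iKO table rests on 33269583 to 57063586 recovered reads per library, while the hair cycle table gives no depth. HFSC markers were abundant in all libraries (9 of 9 found), with summed normalized counts of 1306410 to 1686850 in the first table and 232556 to 660101 in the second, where telogen replicate 1 was the lowest and stood apart from the next library at 526246. Eed mRNA itself overlapped between control and the libraries labelled Eed iKO (log2 difference -0.01, adjusted p = 0.993, limma with Benjamini-Hochberg adjustment), and the directions given for the latter follow their labels. The floxed part of the transcript was not measured apart from the rest.

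Before any comparison, the levels of the 10 genes were ordered within each group as normalized counts per kb of mean length of the protein-coding transcripts. In control HFSCs Trp53 stood first at 3149 ± 376 per kb (SD, n = 3), followed by Phlda3 at 1865 ± 186 per kb, the inhibitor of Akt signalling. Mdm2, Ccng1, Zmat3, Bax and Trp53inp1 came next, at means of 1238 down to 769 per kb, and the ranges of neighbours in this order overlapped. Bbc3 at 167 ± 56.1 per kb and Sesn2 at 106 ± 15.7 per kb were lower, with overlapping ranges. Eda2r was the lowest at 7.49 ± 11.1 per kb. In telogen HFSCs the order began with Ccng1 at 640 ± 66.6 per kb, and Trp53 stood lower at 178 ± 74.8 per kb, with a range that overlapped those of its neighbours Phlda3 and Bax. In anagen HFSCs Trp53 was at 373 ± 39.6 per kb, between Mdm2 and Trp53inp1, again with overlapping ranges. Levels are not compared between the tables, which were normalized separately. Part of the Trp53 and Bax levels is uncertain, because 10.2% of the 31-base words of Trp53 transcripts also occur in other genes (first the pseudogene Trp53-ps) and 11.1% of those of Bax (first Gm45808, which overlaps 12.2% of its exon bases).

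To ask whether the p53 pathway differed between growing and resting follicles, anagen was compared with telogen. Trp53 mRNA was 2.23-fold higher in anagen, and none of the 8 other members tested passed the same test. Thus 1 of 9 members was called, where 11.6% of all 13457 genes tested were called and 7.22% were called higher in anagen. The call of Trp53 was close to its threshold and was lost in most fits with 1 library left out, as set out next.

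**Figure D1:**
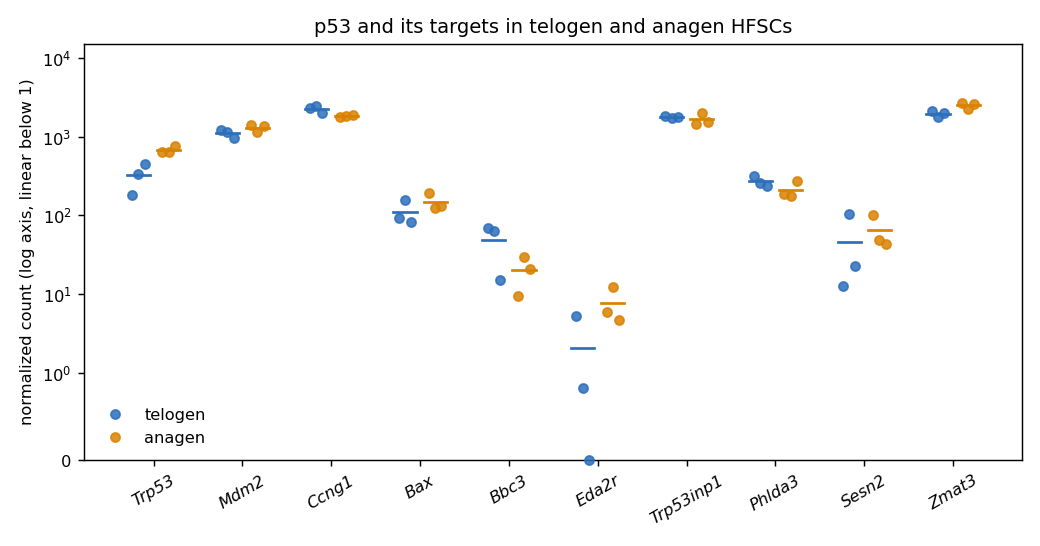
Normalized counts (vertical log axis, linear below 1) of the 10 genes in telogen and anagen HFSCs, with 1 point per library and bars at the group means of 3 libraries. The anagen points of Trp53, 632 to 757, lie above all telogen points, 182 to 451, and the points of Ccng1 and Zmat3 are also apart, in opposite directions.

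Trp53 (ENSMUSG00000059552.13, plus strand of chromosome 11, 69580359 to 69591873, GRCm38) had normalized counts of 633, 632 and 757 in anagen replicates 1, 2 and 3, and of 182, 332 and 451 in telogen replicates 1, 2 and 3. All anagen libraries were above all telogen libraries, and the telogen libraries were spread more widely, with telogen replicate 1 the lowest. The means were 674 ± 71.6 in anagen and 322 ± 135 in telogen (SD, n = 3 each). The log2 difference was 1.16 (standard error 0.33, 95% interval 0.44 to 1.87, limma adjusted p = 0.0434). Without anagen replicate 1, 2 or 3 the adjusted p rose to 0.127, 0.115 and 0.142, and without telogen replicate 1 or 2 to 0.0629 and 0.0624, so that the call was lost in 5 of 6 such fits. The log2 difference stayed positive in each, from 0.79 without telogen replicate 1 to 1.45 without telogen replicate 3, where the limma adjusted p was 0.0213. The call was also lost without the filter on low values (limma adjusted p = 0.0525) and without an intensity trend in the variance model (0.119). Over all 11 alternatives with a test, 4 kept it.

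**Figure D2:**
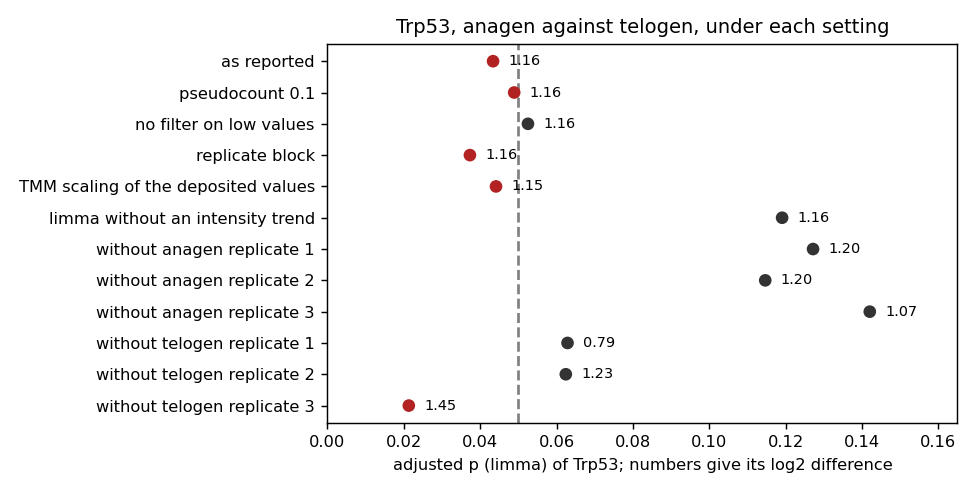
Adjusted p of Trp53 (limma, horizontal axis) for anagen against telogen under the reported setting and each alternative, with the log2 difference printed beside each point, the threshold of 0.05 dashed and called settings in red. The adjusted p ranges from 0.0213 to 0.142, and the log2 difference from 0.79 to 1.45.

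Other quantities moved with this comparison. Of 10 proliferation genes, 10 were called higher in anagen, and their summed normalized counts were 18488 to 28805 in anagen and 772 to 910 in telogen. HFSC markers were not even, with the sort marker Cd34 called lower in anagen (2955, 3233 and 4144, against 6433, 9159 and 8295 in telogen) and Itga6, the α6-integrin gene, called higher. Some markers of other cells were called as well, where 11.6% of all genes were called and 7.22% were called higher in anagen. The 5 melanocyte markers summed to 437 to 803 in anagen and 81.3 to 160 in telogen, with none of them at 0 throughout, and 1 of the 4 tested was called higher. The 6 fibroblast markers summed to 469 to 628 in anagen and 316 to 649 in telogen, with overlap. Of 4 tested, 2 were called higher, Col1a1 and Dcn, the latter at 38.5, 27.2 and 15.7 against 0, 0.644 and 1.47. The other 2 were lower by sign, 1 of them without overlap between the groups. The 4 endothelial markers summed to 132 to 167 in anagen and 72.7 to 139 in telogen, with Cdh5 at 0 throughout. Of 2 tested, 1 was called higher, Tek, and the other was at a log2 difference of -0.08. Differentiated epidermis markers summed to 4495 to 13226 in anagen and 7661 to 15272 in telogen, and 1 of 5 was called higher, Flg. Of these 5, 3 were higher by sign and 2 lower, and the sums overlapped. Immune cell markers summed to 134 to 151 in anagen and 164 to 432 in telogen, with 0 of 6 called by limma and 0 at an unadjusted p under 0.05. These marker genes are named after their values were seen. The part of any of these genes in the Trp53 difference was not tested. In sorted bulk samples, fewer cells of a type and less RNA per cell cannot be told apart.

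The negative feedback genes did not follow Trp53 past the test. Mdm2 (ENSMUSG00000020184.15, chromosome 10, 117688875 to 117710758), the ligase that ubiquitinates p53, had normalized counts of 1397, 1132 and 1346 in anagen and 1201, 1158 and 967 in telogen, with overlapping groups. Its log2 difference was 0.22 (95% interval -0.22 to 0.66, limma adjusted p = 0.513). The ratio of Trp53 to Mdm2 normalized counts was 0.453, 0.558 and 0.562 in the anagen libraries and 0.151, 0.287 and 0.467 in the telogen libraries. Telogen replicate 3 thus had a ratio above that of anagen replicate 1, and the ratios overlapped.

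Ccng1 (ENSMUSG00000020326.7, chromosome 11, 40748552 to 40755311), which encodes cyclin G1, a target that recruits a phosphatase to Mdm2, had normalized counts of 1778, 1851 and 1895 in anagen and 2289, 2456 and 1994 in telogen. All anagen libraries were below all telogen libraries, opposite to Trp53. The log2 difference was -0.28 (95% interval -0.68 to 0.11), and limma gave an adjusted p of 0.339, so that it was not called.

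Among the genes of apoptosis, Bax (ENSMUSG00000003873.11, chromosome 7, 45461697 to 45466898), whose protein permeabilises the outer mitochondrial membrane, had normalized counts of 192, 124 and 130 in anagen and 93.8, 156 and 81.2 in telogen. The groups overlapped through telogen replicate 2, and the log2 difference was 0.46 (95% interval -0.41 to 1.32, limma adjusted p = 0.488), or 0.26 to 0.73 with 1 library left out. Bbc3 (ENSMUSG00000002083.13, chromosome 7, 16308393 to 16318205), which encodes the BH3-only protein PUMA, had 9.48, 29.5 and 20.9 in anagen and 68.5, 63.4 and 15.2 in telogen. Telogen replicates 1 and 2 were the highest, while telogen replicate 3 was within the anagen range. Its log2 difference of -1.12 had a 95% interval of -2.70 to 0.45 (limma adjusted p = 0.339), and it was -1.81 without telogen replicate 3 and -0.69 without anagen replicate 1.

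Eda2r (ENSMUSG00000034457.10, chromosome X, 97333840 to 97377216), a receptor of the TNF receptor family that binds ectodysplasin A2, was near the bottom of the table, with 5.89, 12.5 and 4.67 in anagen and 5.31, 0.832 and 0 in telogen. Its groups overlapped, and at these values it was not tested. Trp53inp1 (ENSMUSG00000028211.11, chromosome 4, 11156431 to 11174379), a p53-induced protein that acts in cell death and autophagy, had 1460, 1969 and 1547 in anagen and 1847, 1723 and 1777 in telogen. These groups overlapped because anagen replicate 2 was the highest library, and the log2 difference was -0.12 (95% interval -0.54 to 0.31, limma adjusted p = 0.739).

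Among the genes of growth signalling and stress, Phlda3 (ENSMUSG00000041801.5, chromosome 1, 135766119 to 135769136) had normalized counts of 189, 176 and 273 in anagen and 314, 260 and 238 in telogen, with overlap through anagen replicate 3. Its log2 difference was -0.37 (95% interval -1.03 to 0.30, limma adjusted p = 0.472). Sesn2 (ENSMUSG00000028893.8, chromosome 4, 132492032 to 132510501), a stress-induced inhibitor of mTORC1, had 102, 48.3 and 42.7 in anagen and 12.6, 103 and 22.8 in telogen. The highest library was telogen replicate 2, and the log2 difference of 0.90 had a wide 95% interval of -0.71 to 2.52 (limma adjusted p = 0.462). It was 0.28 without telogen replicate 1 and 1.75 without telogen replicate 2.

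Zmat3 (ENSMUSG00000027663.12, chromosome 3, 32334792 to 32366014), a zinc finger RNA-binding protein induced by p53, had normalized counts of 2692, 2264 and 2572 in anagen and 2096, 1751 and 1967 in telogen. All anagen libraries were above all telogen libraries. The log2 difference was 0.37 (95% interval -0.03 to 0.77, limma adjusted p = 0.210), which did not pass.

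For 3 of the 9 members, Trp53, Zmat3 and Ccng1, anagen and telogen libraries were fully apart, a share near that of all genes tested, 33.3%. At an unadjusted p under 0.05, 1 of 9 members passed, against 27.3% of all genes. The median log2 difference of the 9 members was 0.22, beside 0.01 for all genes tested. For the members that were not called, the intervals leave room for differences in either direction, and a missed threshold does not show that they did not differ.

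The libraries labelled Eed iKO were then compared with control, from which they differ in both genotype and RU-486 treatment. No member was called in either direction, and the level of Trp53 mRNA was within the spread of the libraries. The count was 0 of 10 by limma, where 0.0267% of 15008 genes were called, and 0 of 10 by edgeR on recovered reads, which called 5 of these genes. DESeq2 on recovered reads gave an adjusted p to 9 members, all but Eda2r, and called 0 of 9, where it called 5.31% of the 12665 genes with an adjusted p. At an unadjusted p under 0.05, limma gave 1 of 10 members, Zmat3, against 14.7% of all genes. The groups overlapped for all 10 members, whereas 20.2% of all genes tested did not overlap.

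**Figure D3:**
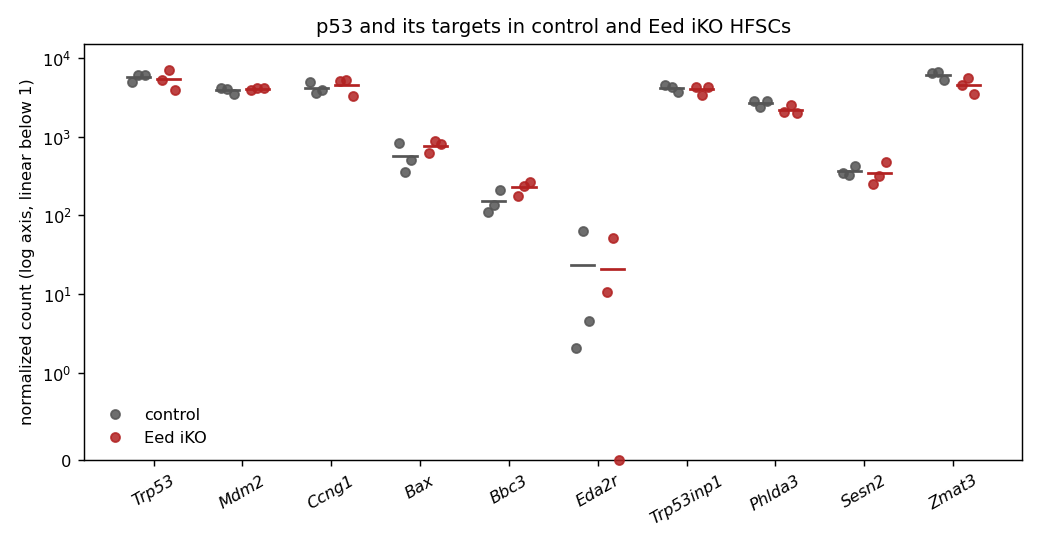
Normalized counts (vertical log axis, linear below 1) of the 10 genes in control HFSCs and in the libraries labelled Eed iKO, with 1 point per library and bars at the group means of 3 libraries. The points of the groups overlap for each gene, and those of Eda2r range from 0 to 62.8.

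Trp53 had normalized counts of 5267, 6943 and 3955 in the libraries labelled Eed iKO (replicates 1, 2 and 3) and 4908, 6067 and 6104 in control (replicates 1, 2 and 3). Both the highest and the lowest library were labelled Eed iKO. The log2 difference was -0.11 (standard error 0.20, 95% interval -0.55 to 0.33, limma adjusted p = 0.839), and it was 0.09 without Eed iKO replicate 3.

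Neither feedback gene was called. Mdm2 had 3910, 4119 and 4165 in the libraries labelled Eed iKO and 4103, 3984 and 3508 in control, a log2 difference of 0.08 (95% interval -0.23 to 0.38, limma adjusted p = 0.839). Ccng1 had 5075, 5194 and 3262 in the libraries labelled Eed iKO and 4890, 3543 and 3922 in control. Eed iKO replicate 3 was the lowest of the 6 for Ccng1, and the log2 difference was 0.11 (95% interval -0.34 to 0.56, limma adjusted p = 0.839).

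Of the genes of apoptosis, Bax had normalized counts of 614, 880 and 803 in the libraries labelled Eed iKO and 828, 356 and 504 in control. Control replicate 1 was within the range of the libraries labelled Eed iKO, and the log2 difference was 0.51 (95% interval -0.19 to 1.22, limma adjusted p = 0.482). It was 0.23 without control replicate 2 and 0.84 without control replicate 1. Bbc3 had 176, 234 and 268 in the libraries labelled Eed iKO and 109, 135 and 207 in control, overlapping through control replicate 3. Its log2 difference was 0.62 (95% interval -0.28 to 1.51, limma adjusted p = 0.506), or 0.41 to 0.87 with 1 library left out.

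Bax and Bbc3 have the shortest transcripts of the members, at means of 667 and 901 bases, and in this table the log2 difference fell with transcript length (Spearman rho -0.21 across 14950 genes, which are not independent). The median log2 difference of the 501 genes of most like length was 0.41 for Bax and 0.26 for Bbc3. For Zmat3, with one of the longest transcripts at 5303 bases, it was -0.10. In the hair cycle table the same rho was -0.00365 across 13428 genes. The part of transcript length in the members' differences was not tested.

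Eda2r varied widely, with 10.8, 51.8 and 0 in the libraries labelled Eed iKO and 2.08, 62.8 and 4.53 in control. These values rest on 10, 39 and 0 reads and on 3, 58 and 5 reads, and a count of 0 in Eed iKO replicate 3 allows up to 3 reads, a normalized count of 2.97, for counting error only. One library of each group was far above its others, and the log2 difference of -0.27 had a 95% interval of -3.75 to 3.21 (limma adjusted p = 0.956). Trp53inp1 had 4301, 3361 and 4245 in the libraries labelled Eed iKO and 4555, 4226 and 3689 in control, overlapping, with a log2 difference of -0.07 (95% interval -0.42 to 0.28, limma adjusted p = 0.874).

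Of the genes of growth signalling and stress, Zmat3 came closest to the threshold, with normalized counts of 4464, 5467 and 3494 in the libraries labelled Eed iKO and 6352, 6537 and 5173 in control. Only Eed iKO replicate 2 reached the control range. The log2 difference was -0.44 (standard error 0.18, 95% interval -0.84 to -0.04), with an adjusted p of 0.287 from limma that ranged from 0.0948 to 0.582 over 14 alternatives. Phlda3 had 2067, 2491 and 1985 in the libraries labelled Eed iKO and 2795, 2370 and 2863 in control. Here too Eed iKO replicate 2 was within the control range, and the log2 difference was -0.30 (95% interval -0.66 to 0.06, limma adjusted p = 0.422).

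Sesn2 had 249, 315 and 471 in the libraries labelled Eed iKO and 348, 324 and 428 in control. The libraries labelled Eed iKO lay on both sides of the control range, and replicate 3 was the highest library of each group. The log2 difference was -0.13 (95% interval -0.85 to 0.59, limma adjusted p = 0.891). Across the 10 members the median log2 difference was -0.09, beside -0.00106 for all genes tested.

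**Figure D4:**
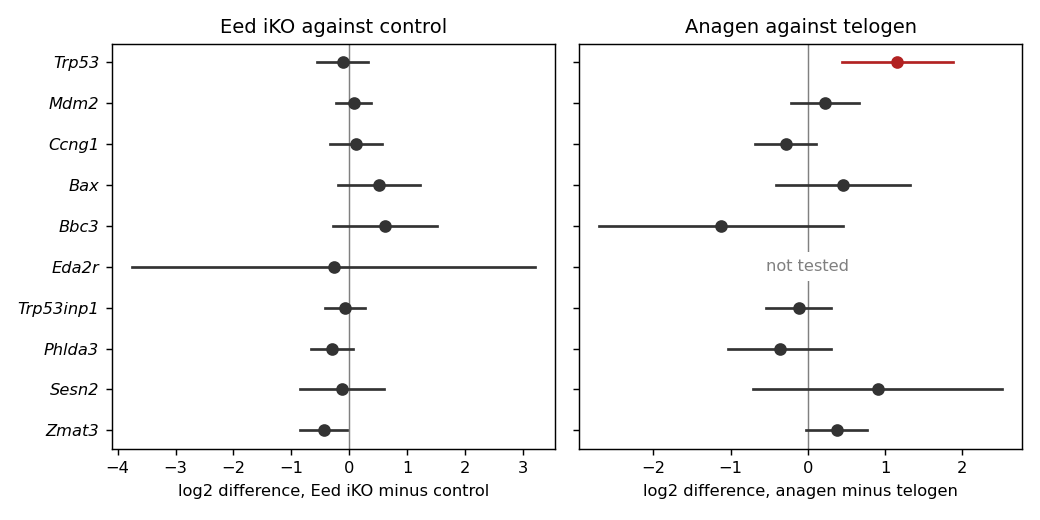
Log2 difference on the log2(normalized count + 1) scale (horizontal axis, points) with 95% intervals from limma (lines) for each gene, with Eed iKO minus control on the left and anagen minus telogen on the right, on axes of different range. The interval of Trp53 on the right, 0.44 to 1.87 and in red, belongs to the only called member, and Eda2r was not tested there.

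The summed proliferation genes were 11117, 10841 and 1239 in Eed iKO replicates 1, 2 and 3 and 1648 to 4201 in control. None of the 10 was called, and limma gave 1 an unadjusted p under 0.05, beside 14.7% of all genes. All 10 were higher by sign, with a median log2 difference of 1.10, beside -0.00106 for all genes tested. Of 9 HFSC markers limma called none, and 3 were at an unadjusted p under 0.05, beside 14.7% of all genes. They were Krt14 and the sort marker Itga6, with log2 differences of 0.82 and 0.41, and Nfatc1 at -0.39, named after their values were seen. The sort marker Cd34, named in the same way, was at -0.33, just over that threshold (limma unadjusted p = 0.05003). Groups did not overlap for 4 HFSC markers that were higher and 1 that was lower, beside 20.2% of all genes. Immune cell markers summed to 392 to 755 in the libraries labelled Eed iKO and 249 to 468 in control, with 0 of 6 tested called by limma and 2 at an unadjusted p under 0.05. The other marker lists overlapped between the groups, with sums over all 6 libraries of 1293 to 3279 for fibroblast, 336 to 697 for endothelial and 279 to 536 for melanocyte markers, and limma called none of their genes. At an unadjusted p under 0.05 they held 1, 0 and 1 genes.

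Replicate 3 of both groups stood apart from the other 4 libraries. Immediate early genes summed to 1427140 in control replicate 3 and 1344490 in Eed iKO replicate 3, and to 607140 to 812970 in the others. Differentiated epidermis markers summed to 39970 and 57647 in these libraries and to 4515 to 13446 in the others. The summed p53 arrest targets were also higher in these libraries, with 120950 and 113490 against 48503 to 60572, but not every gene of that list. Cdkn1a, which encodes the cyclin-dependent kinase inhibitor p21, had 32501 and 36078 against 12420 to 18747. Btg2 had 52757 and 46600 against 17196 to 22438. Sfn, Plk2 and Plk3 were also higher in both libraries. Sesn1 and Gadd45a were within the range of the other libraries, and Gtse1 was lower, at 39.9 and 37.6 against 45.8 to 214. These genes are named after their values were seen. None of the 8 immediate early genes and 5 epidermis markers was called between the groups by limma, and at an unadjusted p under 0.05 they held 0 and 1. With both libraries numbered 3 left out, an alternative chosen after seeing the data, 0 of 10 members and 0 of 46 other pathway genes were called. That fit called 201 of all 15008 genes, so that 0 calls in lists this small say little. Its log2 difference was 0.15 for Trp53 and -0.38 for Zmat3 (limma adjusted p = 0.720 and 0.245). The part of these marker genes in the members' values was not tested.

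Beyond the members, 48 other genes of the pathway were listed by role. In the hair cycle table all 48 were found and 45 were tested, of which 4 were called higher and 1 lower in anagen, beside 11.6% of all genes called. Their median log2 difference was 0.02, close to the 0.01 of all genes. In the Eed iKO comparison 47 were found and 46 tested, and 0 were called by limma, with 4 at an unadjusted p under 0.05, which 14.7% of all genes reached. There the median was 0.03.

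**Figure D5:**
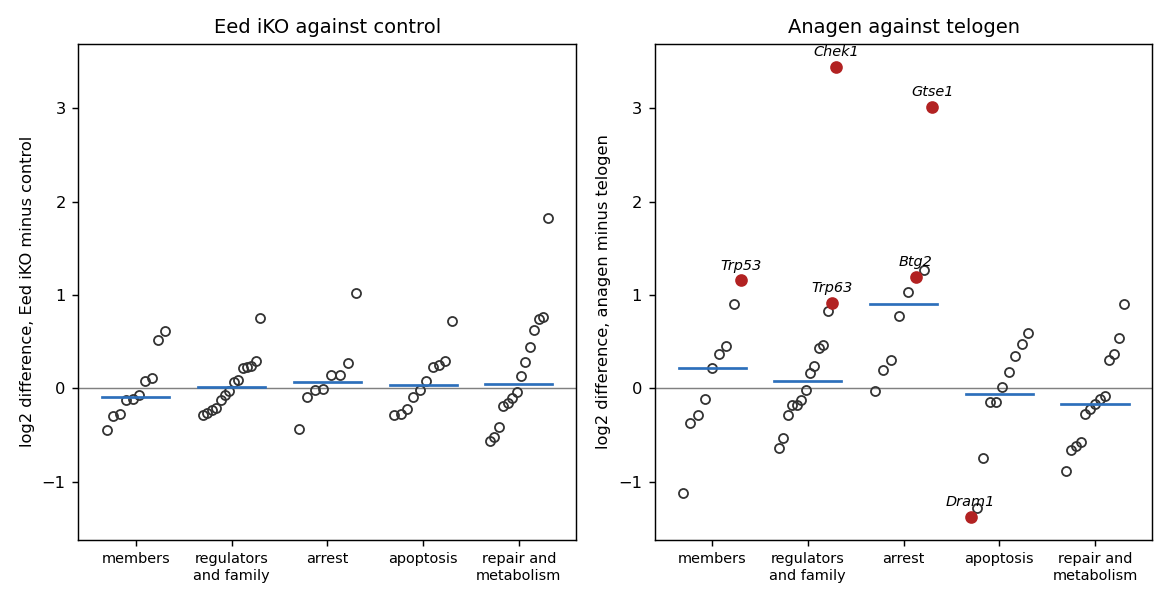
Log2 differences (vertical axis) of the members and of the other genes of the p53 pathway by role, each point 1 gene, filled red where called at an adjusted p under 0.05, with medians as blue lines. In the comparison of anagen with telogen on the right, Chek1, Gtse1, Btg2, Trp63 and Trp53 are called higher and Dram1 lower, and no gene is called on the left.

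Among 14 regulators and family members, 2 were called higher in anagen and none lower, beside 11.6% of all genes called in either direction. By sign, 7 were higher and 7 lower. Chek1, a checkpoint kinase of S and G2 phase, had normalized counts of 695, 502 and 481 in anagen and 27.4, 63.0 and 70.3 in telogen, 10.9-fold higher and without overlap (limma adjusted p = 4.2e-04). Trp63, the p53 relative that maintains stratified epithelia, was abundant, with 29290, 30368 and 28812 in anagen and 12924, 17571 and 16855 in telogen. It was higher in each anagen library than in any telogen library, with a log2 difference of 0.91 (standard error 0.18, limma adjusted p = 0.00935, and 0.0548 without anagen replicate 2).

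Of 8 arrest targets tested, 2 were called higher in anagen and none lower, beside the same 11.6% of all genes. By sign, 7 were higher and 1 lower. Btg2, an antiproliferative gene that also acts as an immediate early gene, had 3128, 2775 and 2378 in anagen and 1460, 1464 and 800 in telogen. These groups did not overlap, and the log2 difference was 1.20 (limma adjusted p = 0.0128, and 0.0735 and 0.0548 without anagen replicate 1 or 2). Gtse1, a microtubule-associated protein of G2 and S phase that restrains p53, had 228, 93.7 and 82.9 in anagen and 15.5, 17.8 and 10.1 in telogen. It was 8.10-fold higher (limma adjusted p = 0.00615, and 0.0543 without anagen replicate 1). The proliferation genes given above moved in the same direction as Chek1 and Gtse1, and 2 of 8 immediate early genes were called higher in anagen, with sums of 46187 to 51835 in anagen and 15209 to 65981 in telogen. Their part was not tested.

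Of 10 apoptosis targets, 1 was called lower in anagen and none higher, beside 11.6% of all genes called in either direction. By sign, 5 were higher and 5 lower. Dram1, a lysosomal membrane protein that p53 induces to promote autophagy, had 344, 374 and 403 in anagen and 902, 1117 and 913 in telogen. The groups were well apart, and the log2 difference was -1.38 (standard error 0.22, limma adjusted p = 0.0030). It kept its call in each of 6 fits without a library, with adjusted p up to 0.0241.

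None of 13 repair and metabolism targets tested was called by limma in the hair cycle, beside 11.6% of all genes. Nor were any at an unadjusted p under 0.05, which 27.3% of all genes reached. By sign, 4 were higher in anagen and 9 lower. Summed over the list, normalized counts were 3530 to 3967 in anagen and 4862 to 4911 in telogen. The lowest p belonged to Polk, a translesion DNA polymerase, at a log2 difference of -0.66 (limma adjusted p = 0.195), and to Ephx1, an epoxide hydrolase, at -0.62 (limma adjusted p = 0.228). Without telogen replicate 1, Ephx1 was called, with a log2 difference of -1.01 and a limma adjusted p of 0.0138.

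In the libraries labelled Eed iKO the pathway genes with the lowest p in each list are given with log2 differences that did not pass. Among regulators they were Chek2, a kinase that phosphorylates p53 after DNA breaks, at 0.76 (limma adjusted p = 0.373), and Hipk2, another p53 kinase, at -0.29 (0.399). Among arrest targets they were Sesn1 at 0.27 (0.448) and Gtse1 at 1.02 (0.532). Siva1 at 0.72 (0.251) and Ei24 at 0.29 (0.401) came first among the apoptosis targets. Psrc1 at 0.74 (0.276) and Polk at -0.56 (0.281) came first among the repair and metabolism targets. None of these 8 genes was called in any of 6 fits that each omit 1 library.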

How the data were processed

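The authors aligned reads to mouse transcripts (Gencode vM20, mm10) with Kallisto (0.42.5) and compared protein-coding genes with DESeq2 (version 3.11 in the submitters' processing notes). The signal values deposited are gene counts scaled by the size factor of each library. The deposited log2 fold changes and p-values of the authors' own comparisons were not used. Whole reads could be recovered for Eed iKO and control, where 100% of values per library were whole multiples of 1 constant (tolerance 0.1 reads), but not from the hair cycle table (40.5% to 51.4% of values). The members and gene lists were chosen with earlier results of these data known.

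Each table was fitted with limma (3.58.1, R 4.3.3) on log2(value + 1) with an intensity trend, over genes passing filterByExpr of edgeR (4.0.16) at a minimum of 10, which left 15008 and 13457 genes. A gene was called when its p, adjusted over all genes tested by the method of Benjamini and Hochberg, was under 0.05, and 95% intervals come from the moderated fit. The code was tested on simulated data. Alternatives were a pseudocount of 0.1, no filter, TMM scaling, no trend, a block for the replicate number, leaving out each library, the thresholds of the methods, and, for recovered reads, edgeR and DESeq2 (1.42.0). The baseline of genes of like transcript length and the fit without both libraries numbered 3 were added after seeing the data. Coordinates, transcript lengths and shared words of 31 bases came from GENCODE vM21 (GRCm38).

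All members were named, and from each pathway list the genes called or, where there were none, the 2 with the smallest p. For the other lists counts and ranges are given. No library was left out of the main fits.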

Additional observations from a re-analysis of the deposited data

How the results depend on the processing

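Across all alternatives no member was called in the Eed iKO table. The member log2 differences kept their sign in all alternatives of the hair cycle, and in the Eed iKO comparison 10 values over 6 genes changed sign. With each library left out in turn these ran from -1.59 to 1.28 for Eda2r, -0.38 to 0.0797 for Sesn2, -0.00442 to 0.33 for Ccng1, -0.15 to 0.0453 for Trp53inp1 and -0.31 to 0.0942 for Trp53, and against genes of like transcript length Trp53inp1 was at 0.0316. With both libraries numbered 3 left out, Trp53 was at 0.148, Mdm2 at -0.0107, Eda2r at 0.829 and the member median at 0.0687. The member median there ran from -0.0808 to 0.0759, the latter without Eed iKO replicate 3. In the hair cycle, 0 members were called without the filter, without the trend and at the thresholds of the methods (unadjusted p under 0.05 and a log2 difference over 2), and 0 to 1 with a library left out. The genes called in the Eed iKO table, 4 as reported, were 424 with the replicate block, 2 without the trend, 263 at the thresholds of the methods (log2 difference over 1.5), 673 with DESeq2, 201 with both libraries numbered 3 left out and 1 to 203 with a library left out. In the hair cycle, 1556 as reported became 842 without the trend, 686 at the thresholds of the methods and 597 to 1529 with a library left out. The causes were not tested.

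Whether replicate numbers pair the libraries was checked through the correlation of deviations from group means across genes. It was 0.04, 0.07 and 0.19 for replicates 1, 2 and 3 of the Eed iKO table, where 2 of the 3 pairs of libraries correlated best with their own number. In the hair cycle it was -0.03, -0.07 and -0.03. The labels do not say what the numbers mark, and the main fits did not take them as pairs. For the Eed iKO table this is not settled. There replicate 3 of both groups stood apart, and the replicate block raised the genes called from 4 to 424. The replicate block changed no member's call, with a limma adjusted p of 0.0373 for Trp53 in the hair cycle and 0.0948 for Zmat3 in the Eed iKO table, and gave 1224 genes called in the hair cycle. Depth limits Eda2r in the Eed iKO table, where it had 0 to 58 reads.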

Other observations

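The genes whose log2(normalized count + 1) was most like that of Trp53 over the 6 libraries of the hair cycle table were Tdrkh (Pearson r 0.996), Impa1 (0.995) and Atxn1l (0.994), out of 13457 genes. In the Eed iKO table they were Zfp759 (0.996), Zfp64 (0.994) and Egln3 (0.984), out of 15008, and no gene was among the first 3 in both tables. The 6 libraries share their groups and normalization, and these values are a description. Among the members, the correlation with Trp53 over 6 libraries ran from -0.82 for Ccng1 to 0.63 for Zmat3 in the hair cycle table. In the Eed iKO table it ran from -0.71 for Trp53inp1 to 0.86 for Eda2r, which had only 0 to 58 reads per library there.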
